A study of Rattus norvegicus with 36 samples.

Results

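Rat lung slices that received TGFb together with pirfenidone were compared with slices that received nothing, both at the labelled time 72. The aim was to describe the net state of drug-treated tissue. This covers genes that still differed from untreated slices and genes that passed the test threshold only with the drug. The comparison takes 12 of the 36 libraries of the series, chosen by their titles: 6 of TGFb with Pirf and 6 untreated. Pirf is read as pirfenidone from knowledge of the study. The 6 libraries of TGFb alone at 72 served to sort the genes, and those at time 0 and with TGFb plus Nint or Sora (read as nintedanib and sorafenib) are given beside them. All are precision-cut slices, thin living sections of rat lung kept in culture, without a stated strain, sex, age, dose or unit of time. All drug-treated slices also received TGFb and no library of Pirf without TGFb was analysed here, so a net difference cannot be told apart into a share of TGFb and a share of the drug acting alone. Whether replicates were separate animals or slices of one animal is not stated, so p-values measure no more than how these samples spread, possibly for technical reasons.

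TGFb is a secreted growth factor that binds a pair of receptor kinases at the cell surface and signals to the nucleus through SMAD proteins. In lung it turns fibroblasts into contractile, matrix-producing cells and holds back epithelial growth, and it is the standard agent for provoking a fibrosis-like state in lung slices. Pirfenidone is a small oral drug used against idiopathic pulmonary fibrosis, with anti-fibrotic and anti-inflammatory actions and no single agreed target. A slice holds epithelium, endothelium, mesenchyme and immune cells together, so fewer cells of a type and less RNA per cell cannot be told apart in its counts. The deposited tables list genes by Ensembl ID only, and the gene table used here carries no Ensembl IDs, so 0 IDs were paired with a name. Genes are therefore given by ID, lists by pathway or cell type could not be counted, and the labelled tissue was not checked against its markers.

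Total counts per library lay between 18971560 and 26361547 in untreated slices and between 20347040 and 32299405 with TGFb and Pirf (exact permutation p = 0.23, two-sided, adjusted p = 0.23 over 3 library measures). A principal component analysis of the 12 libraries placed 48.1% of the variance on its leading axis, which kept the groups apart with scores of -57.2 to -28 in untreated slices and 33.1 to 48.6 with TGFb and Pirf. The next axis held 10.3% and spread the untreated libraries from -38.3 to 31.1, whereas the drug-treated ones stayed between -19.4 and 16.1. The median gene had an SD of 0.179 on the log2 scale among untreated libraries and 0.133 among those with Pirf, the lowest of the 6 groups. TMM scaling factors were 1.01 ± 0.0478 (SD, n = 6) and 1.07 ± 0.00869 (exact permutation p = 0.0065, adjusted p = 0.0097). Genes that are not in the authors' coding table took a share of counts of 11.2% ± 1.12 in untreated slices and 13.6% ± 0.728 with Pirf, with overlapping ranges (exact permutation p = 0.0043, adjusted p = 0.0097). The part of this shift in the results was not tested. 

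Drug-treated and untreated slices differed in 52% of the tested genes. Of 15644 genes tested with edgeR's quasi-likelihood test, 8131 were called at a Benjamini-Hochberg adjusted p under 0.05, 4061 higher and 4070 lower with TGFb and Pirf (26% each). The even split depends on the scaling: on total counts alone 4954 were higher and 3183 lower, and the middle of the distribution of net log2 changes then lay 0.0838 further up. In 5299 genes (33.9%) the 6 drug-treated libraries lay wholly above or wholly below the 6 untreated ones. Most changes were small. The median log2 fold change was 0.46 among genes called higher and -0.55 among those called lower, and 3509 called genes (43.2%) reached 1.5-fold.

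Large changes leaned downwards. At least 2-fold changes were called in 711 genes that were higher (4.54% of those tested) and 1002 that were lower (6.41%). At 4-fold the numbers were 130 and 240, and at 8-fold 29 and 94. In 3 of these genes 1 of the groups had no count at all, so that their fitted folds depend on the prior count. The lean grew with abundance. In the tier of genes with the lowest mean normalized count, 497 of 5215 were called at least 2-fold higher and 515 lower. The numbers were 130 and 250 of 5214 in the middle tier, and 84 and 237 of 5215 in the highest. Calls of any size leaned downwards in the highest tier only, with 1122 higher and 1850 lower (21.5% and 35.5%). In the middle tier 1669 were higher and 1295 lower (32% and 24.8%), and in the lowest 1270 and 925 (24.4% and 17.7%). The tiers were not recounted on total counts alone. Among 1164 tested genes that the coding table does not list, 185 were called higher and 159 lower, 29.6% together against 53.8% of genes inside it. Their median normalized count was 23.5, against 515 inside the table.

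**Figure D1:**
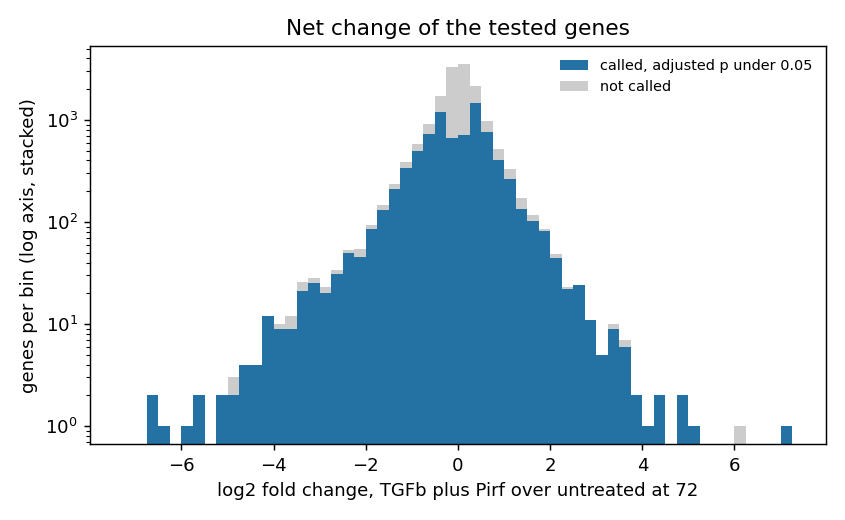
Histogram of log2 fold changes of TGFb plus Pirf over untreated slices at 72, in bins of 0.25 on a log count axis, stacked by whether the gene was called. Called genes fill both tails, and the lower tail is the fuller one beyond 2-fold (1002 genes against 711).

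By the rule fixed for naming, the leading genes of the net comparison were called, did not overlap between groups and had a mean of at least 50 normalized counts in the higher group. A normalized count is the count after TMM scaling, expressed for a library of average size. In untreated slices ENSRNOG00000003776 had 0 to 2.24 normalized counts (median 1.51), and with TGFb and Pirf it had 38.1 to 79.1 (median 51.9). Its net log2 fold change was 5.21 (SE 0.61, adjusted p = 2.09e-08). ENSRNOG00000008915 had 0.922 to 2.82 normalized counts (median 2.15) in untreated slices and 47 to 94.8 (median 53.3) with Pirf, and its net log2 fold change was 4.83 (SE 0.46, adjusted p = 4.51e-10). Both were nearly silent in untreated slices at 72 and far from it in every drug-treated library. They were not silent at time 0, where ENSRNOG00000003776 had 1.60 to 68.6 normalized counts (median 16.2), overlapping the range with Pirf, and ENSRNOG00000008915 had 6.29 to 17.9 (median 12.2), below it. From 0 to 72 without treatment they fell 18.6-fold and 5.88-fold (adjusted p = 3.79e-07 and 2.42e-05), so their net change is measured from a level lowered in culture.

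The genes that led downwards were abundant in untreated culture. ENSRNOG00000032626 had 2031 to 8378 normalized counts (median 3239) in untreated slices and 42.6 to 108.7 (median 61.6) with TGFb and Pirf. Its net log2 fold change was -5.92 (SE 0.43, adjusted p = 1.76e-12). ENSRNOG00000032832 had 469 to 1108 (median 638) and 7.74 to 27 (median 12.9), with a net change of -5.51 on the log2 scale (SE 0.42, adjusted p = 4.91e-12). Every drug-treated library of the first lay below the lowest library at time 0, at 255, and of the second only the highest drug-treated library (27) lay above the lowest at time 0 (21.7).

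Each gene was then placed by 3 tests from the same fit: the net comparison, TGFb alone against untreated slices, which called 4130 genes (26.4%; 2187 or 14% higher and 1943 or 12.4% lower), and TGFb with Pirf against TGFb alone, which called 8061 (51.5%; 3926 or 25.1% higher and 4135 or 26.4% lower). The net and TGFb tests share the untreated libraries, and the net and direct tests share the Pirf libraries, so the sizes of the classes are descriptions and have no test of their own. A gene stayed changed when it was called in the same direction with and without Pirf. It was new when it was called in the net comparison, not called for TGFb alone, and called in the same direction in the direct comparison of Pirf with TGFb alone. It was back when it was called for TGFb, called the other way in the direct comparison and not called in the net one, and opposite when the net call ran against the TGFb call.

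Of the 8131 net calls, 4425 (54.4%) were new and 2213 (27.2%) stayed changed, and 398 (4.89%) were opposite to TGFb. The remaining 1095 (13.5%) were called in the net comparison only and were not shown to differ from TGFb alone. Seen from the 4130 genes called for TGFb, 2213 (53.6%) stayed changed, 1189 (28.8%) were back and 398 (9.64%) were opposite, which leaves 330 (7.99%) whose net call was missed without a call in the direct comparison. The make-up differed by size of change. Among net changes of at least 2-fold, 337 of the 711 higher genes stayed changed and 302 were new, and of the 1002 lower genes 414 stayed changed and 496 were new. At 8-fold, 23 of 29 higher genes had been called for TGFb in the same direction and 4 were new, whereas 46 of 94 lower genes stayed changed and 40 were new.

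**Figure D2:**
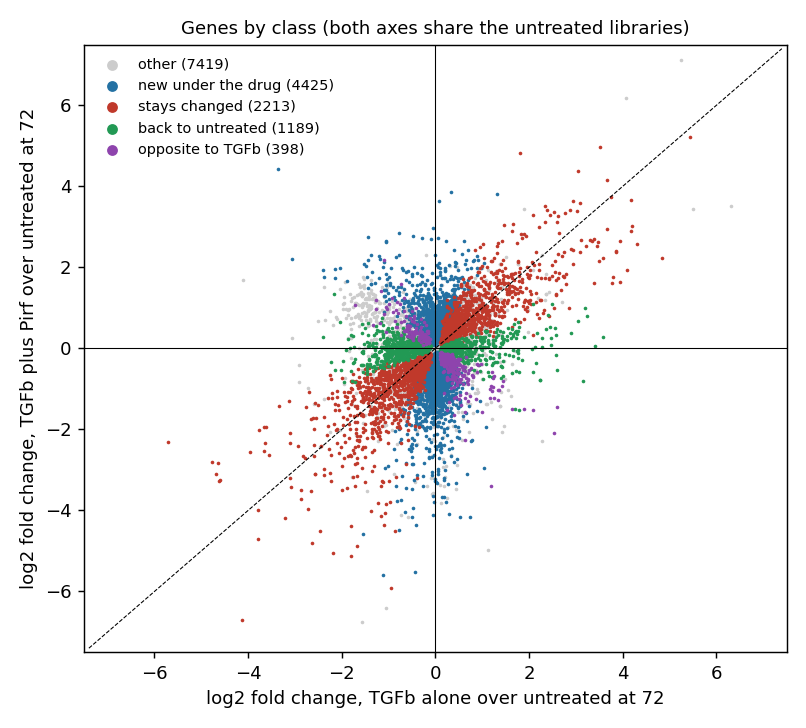
Each point is a tested gene, with the log2 fold change of TGFb alone over untreated slices on the x axis and of TGFb plus Pirf over untreated slices on the y axis, coloured by class. The dashed line marks equal values. New genes (4425) spread up and down near 0 on the x axis, genes back to untreated (1189) lie along the x axis. The class rules favour both positions. Both axes share the untreated libraries.

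At the median, the genes that stayed changed were moved about as far with the drug as without it. The class rule favours this, because it asks for a call in the same direction in both comparisons. The 1154 higher ones had a median log2 fold change of 0.54 with TGFb alone and 0.64 with TGFb and Pirf, and the 1059 lower ones had -0.77 and -0.80. On total counts alone the split became 827 higher and 1096 lower. In the direct comparison with TGFb alone, 1412 of the 2213 had no call, 542 lay further from untreated with Pirf, and 259 lay nearer to untreated and were still called. A missing call does not show that levels were equal.

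ENSRNOG00000003776, whose net values are given above, rose with TGFb and remained high with Pirf. It had 37.2 to 124 normalized counts (median 55.1) with TGFb alone, overlapping the range with Pirf. Its log2 fold change was 5.45 for TGFb alone (adjusted p = 2.92e-08) and -0.23 (SE 0.41, adjusted p = 0.66) between Pirf and TGFb alone. With Nint and Sora it also lay above untreated slices, at means of 70.4 ± 18.3 and 34.3 ± 17.2 (SD, n = 6). ENSRNOG00000008915 is a different case within the class. It had 2.17 to 16.8 normalized counts (median 6.58) with TGFb alone, all below the lowest Pirf library at 47. Pirf against TGFb alone gave 3.01 on the log2 scale (SE 0.39, adjusted p = 1.51e-07), and TGFb alone gave 1.82 (adjusted p = 0.00699). It was 9.33-fold and 12.5-fold higher with Pirf than with Nint and Sora (adjusted p = 5.05e-08 and 1.46e-08). With limma-voom its TGFb call was lost, so that it counted as new.

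Of the genes that stayed lower, the pair with the largest net change lay far lower with Pirf than with TGFb alone. ENSRNOG00000032626 had 1017 to 3670 normalized counts (median 1831) with TGFb alone, against 42.6 to 108.7 with Pirf. Its fall with TGFb alone was small and near the threshold (log2 fold change -0.94, adjusted p = 0.0375), and in 8 of 26 other settings that TGFb call was missing and the gene counted as new. In the direct comparison it fell by 4.98 on the log2 scale (SE 0.42, adjusted p = 4.99e-11). ENSRNOG00000023943 had 148.6 to 382 normalized counts (median 172) in untreated slices, 8.69 to 170 (median 64.9) with TGFb alone and 3.32 to 14.6 (median 7.46) with Pirf. Its net log2 fold change was -4.89 (SE 0.51, adjusted p = 2.64e-09), and TGFb alone gave -1.68 (adjusted p = 0.00231). The lowest TGFb-alone library overlapped the Pirf libraries, and the other 5 lay above them.

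New genes made up the largest class. They comprised 2125 genes higher and 2300 lower than in untreated slices, with median net log2 fold changes of 0.45 and -0.52. Their median log2 change with TGFb alone was 0.0026 in the first set and 0.022 in the second. The class rule favours such small values, because it takes only genes without a call for TGFb alone. A missed TGFb call does not show that TGFb left a gene unchanged. On total counts alone the split became 3262 higher and 1535 lower. At least 2-fold changes were seen in 302 of the higher and 496 of the lower genes. The lower genes were abundant: they held 25.4% ± 1.04 (SD, n = 6) of counts in untreated slices, 25.1% ± 1.37 with TGFb alone and 18.6% ± 0.413 with Pirf. The higher genes held 7.64% ± 0.499, 7.25% ± 0.649 and 10.7% ± 0.149. These shares follow from how the genes were chosen and give the scale of the change in the RNA pool.

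Libraries that the class rule did not use show where the other treatments stood. Over the new lower genes, the median log2 difference from the untreated mean was -0.51 ± 0.0172 with Pirf (SD, n = 6), 0.02 ± 0.0305 with Nint and -0.09 ± 0.0452 with Sora. Over the new higher genes it was 0.45 ± 0.0234 with Pirf, -0.02 ± 0.0424 with Nint and 0.12 ± 0.0742 with Sora. At time 0 the medians were -0.45 ± 0.0391 for the lower and 0.21 ± 0.0221 for the higher set. The Nint means thus lay near the untreated mean in both sets, and the Sora means lay between those of Nint and Pirf. In direct tests, 4089 of the 4425 new genes (92.4%) differed between Pirf and Nint in the direction of the net call and 3150 (71.2%) between Pirf and Sora. Over all tested genes 28.2% were called higher and 26.5% lower with Pirf than with Nint, and 20.3% and 21.8% against Sora. A total of 3055 new genes (69%) differed from both in the direction of the net call, whereas over all tested genes 16.9% were higher and 18.1% lower with Pirf than with both, 34.9% together. The same Pirf libraries chose the class and enter these tests, and the doses are not given. Untreated libraries also chose the class, and the levels are taken against them. Nothing is therefore read from the side on which the medians at time 0 lie.

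**Figure D3:**
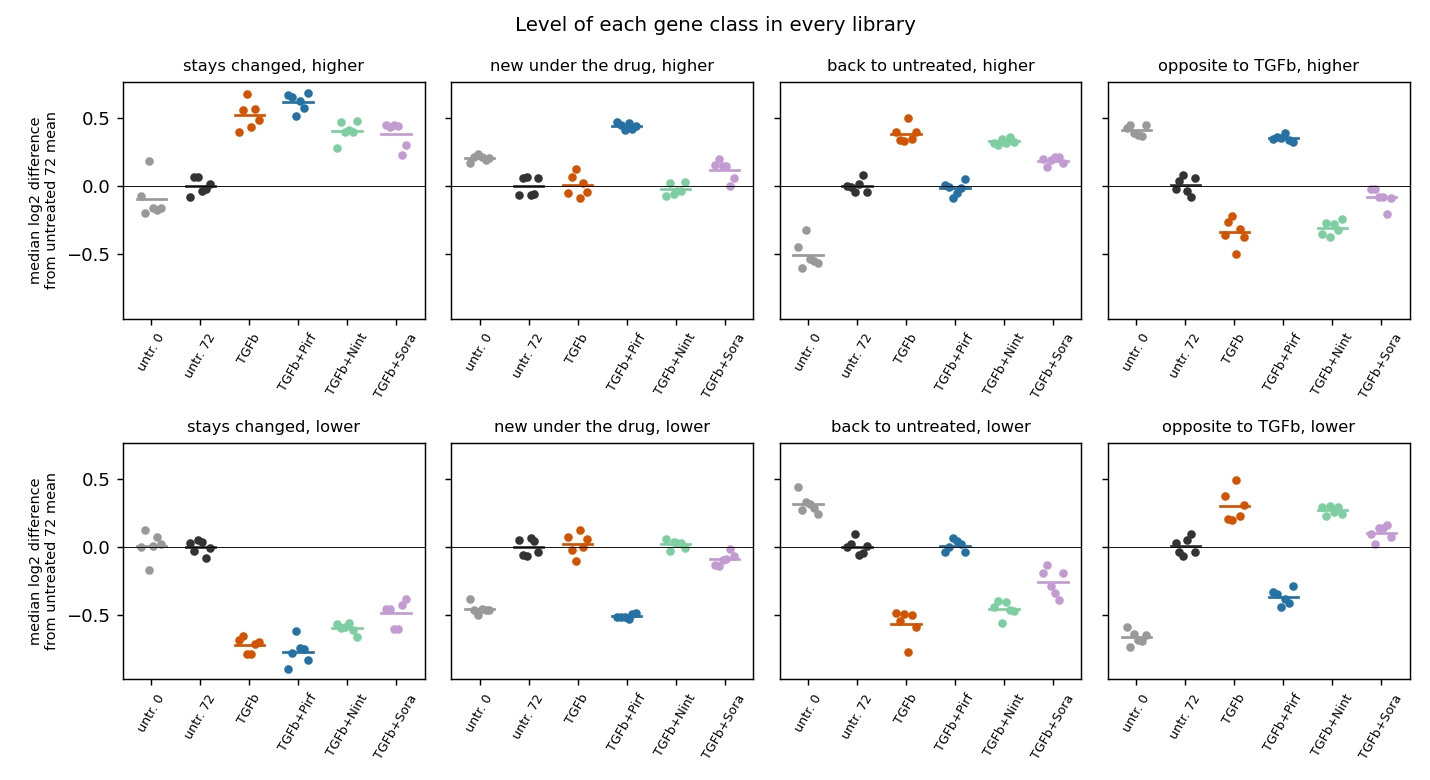
Median log2 difference from the mean of untreated slices at 72 over the genes of each class and direction, 1 point per library and a bar at the mean of 6. Untreated-72, TGFb and Pirf libraries chose the classes, and the others did not. In both new sets the Pirf points (0.45 and -0.51 on average) lie beyond every other library at 72.

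ENSRNOG00000032832, described above, led the new lower genes. It had 220 to 826 normalized counts (median 415) with TGFb alone, overlapping untreated slices (log2 fold change -0.44, adjusted p = 0.348). The direct comparison of Pirf with TGFb alone gave -5.08 (SE 0.42, adjusted p = 3.88e-11). With Nint and Sora its means were 541 ± 188 and 400.3 ± 188. ENSRNOG00000008478 had 196 to 1291 normalized counts (median 483) in untreated slices, 165 to 687 (median 299) with TGFb alone and 11.1 to 39.3 (median 23.4) with Pirf. Its net log2 fold change was -4.48 (SE 0.49, adjusted p = 6.62e-09). The highest Pirf library of ENSRNOG00000008478, at 39.3, lay below the lowest library of any other group at 72, at 158. With the well number of the sample codes as a covariate, ENSRNOG00000008478 was also called for TGFb and counted as staying changed.

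The leading new higher genes were of low abundance in untreated slices at 72. ENSRNOG00000007765 had 5.18 to 18.8 normalized counts (median 9.11) in untreated slices, 4.65 to 58.9 (median 22.9) with TGFb alone and 98.1 to 209.5 (median 128.6) with Pirf. The net log2 fold change was 3.81 (SE 0.60, adjusted p = 3.87e-06), and that of TGFb alone was 1.31 (SE 0.60, adjusted p = 0.112). At time 0 it had 8.16 to 95.4 (median 14.3), below the lowest Pirf library. With Sora it had 7.14 to 94 and was also called above untreated slices, 3.85-fold (adjusted p = 0.0157). With Nint it had 3.24 to 28.2 and was not (adjusted p = 0.8). Pirf lay 3.63-fold above Sora (adjusted p = 0.00521). In a fit of the 3 groups alone the TGFb change was called and the gene counted as staying changed. ENSRNOG00000001873 had 1.33 to 23.5 (median 10.4), 1.09 to 15.8 (median 6.02) and 27.1 to 123 (median 76) in the same order, with a net change of 2.77 on the log2 scale (SE 0.64, adjusted p = 0.000533). At time 0 its range of 0 to 56.1 (median 14) overlapped that with Pirf. Its level moved within groups with a set of 133 genes that vary together from library to library (r = 0.86 over the deviations of 36 libraries, a description without a test). The part of that set in its rise was not tested.

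Genes counted as back are near untreated slices by the rule that chose them, and the values describe how near. With TGFb alone, 608 of them had been called higher, with a median log2 fold change of 0.39, and 581 lower, with a median of -0.62. With TGFb and Pirf the medians were -0.03 and 0.02, and the median distance from untreated was 0.0979 on the log2 scale. On total counts alone the class held 319 risen and 948 fallen genes. For 878 of the 1189 (73.8%) the 95% normal interval of the net change lay inside 1.5-fold in both directions, and for the others the data leave room for a larger difference. In libraries not used to choose them, the risen genes had a median level of 0.33 ± 0.0209 with Nint and 0.19 ± 0.0286 with Sora above untreated slices on the log2 scale (SD, n = 6), and the fallen ones -0.46 ± 0.0582 and -0.26 ± 0.0993. The untreated libraries that these levels are taken against did choose the class, so part of the distance may follow from the choice.

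ENSRNOG00000043219 had 6.63 to 19.7 normalized counts (median 13.2) in untreated slices, 99.5 to 229 (median 150.2) with TGFb alone and 7.31 to 24.9 (median 16.1) with Pirf. Its log2 fold change was 3.59 with TGFb (adjusted p = 3.57e-07) and -3.30 (SE 0.44, adjusted p = 3.13e-07) between Pirf and TGFb alone. The net value of 0.29 (SE 0.47, adjusted p = 0.632) has a wide error, so a moderate net change would not have been detectable. ENSRNOG00000000858 had 3.69 to 19 (median 7.02), 51.5 to 123.5 (median 78.4) and 5.22 to 23.9 (median 15.6) in the same order. Its net log2 fold change of 0.79 (SE 0.42, adjusted p = 0.116) became a call without untreated replicate 2, at 1.17 (adjusted p = 0.0266).

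Among genes that TGFb lowered, ENSRNOG00000047158 had 482 to 901 normalized counts (median 740.4) in untreated slices, 119 to 370.3 (median 150.5) with TGFb alone and 552 to 870.2 (median 643) with Pirf. The range with Pirf lay inside that of untreated slices, and the net log2 fold change was -0.03 (SE 0.23, adjusted p = 0.914). ENSRNOG00000010761 had 2004 to 3835 (median 2816), 228 to 1683 (median 420.2) and 1795 to 2500 (median 2297), with a net value of -0.34 (SE 0.32, adjusted p = 0.389). At time 0 this gene had 15628 to 39845 normalized counts, so untreated and drug-treated slices at 72 both lay far below the time 0 libraries. Its log2 fold change from 0 to 72 without treatment was -3.04 (adjusted p = 1.48e-09).

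The class opposite to TGFb was the smallest, with 139 genes that TGFb lowered and that lay above untreated slices with Pirf, and 259 that TGFb raised and that lay below. Their median net log2 fold changes were 0.38 and -0.38, and those of TGFb alone were -0.36 and 0.33. The number was 255 with no filter on low counts, 247 with the well number as a covariate, 248 without TGFb-alone replicate 4, 129 at an adjusted p under 0.01, and 39 against a fold of 1.2. On total counts alone the split turned to 281 higher and 112 lower. At time 0 these genes had median levels of 0.41 ± 0.0379 and -0.66 ± 0.0521 relative to untreated slices at 72 (SD, n = 6). These levels and those with Pirf are taken against the same untreated libraries that chose the class, so nothing is read from their shared side. 

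ENSRNOG00000014320 had 627 to 1494 normalized counts (median 1185) in untreated slices, 1460 to 3491 (median 2426) with TGFb alone and 76.3 to 128.7 (median 108.4) with Pirf. It rose with TGFb by a log2 fold change of 1.18 (adjusted p = 0.00312) and was 3.39 below untreated on the same scale with Pirf (net log2 fold change -3.39, SE 0.34, adjusted p = 1.31e-09). ENSRNOG00000015562 had 220 to 315 (median 269), 284 to 625 (median 369.8) and 54.2 to 63.1 (median 55), with a net change of -2.25 on the log2 scale (SE 0.14, adjusted p = 1.16e-13). Its Pirf libraries lay within a narrow band below every library of the other 5 groups, the lowest of which was at time 0 with 127. With Nint and Sora it had means of 415 ± 59.6 and 414 ± 38.5.

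Upwards, ENSRNOG00000021201 had 2133 to 3644 normalized counts (median 2809) in untreated slices, 1254 to 2587 (median 1457) with TGFb alone and 6353 to 10349.8 (median 9223) with Pirf. The net log2 fold change was 1.59 (SE 0.23, adjusted p = 6.8e-07). Its range with Pirf overlapped that at time 0, 7074 to 11202. Against a fold of 1.2, and with the well number as a covariate, its TGFb call was missing and it counted as new. It was 2.31-fold higher with Pirf than with Sora (adjusted p = 6.19e-05). ENSRNOG00000017619 had 45.2 to 238 (median 92.1), 20 to 78 (median 53.6) and 262 to 721 (median 477), with a net change of 2.18 on the log2 scale (SE 0.38, adjusted p = 1.78e-05). At time 0 it had 830.2 to 2426 (median 1062), so every Pirf library lay below every library at time 0. Its TGFb call was near the threshold (adjusted p = 0.0471), and in 15 of 26 other settings this gene counted as new. Within groups it moved with the same 133 genes (r = 0.66), a part that was not tested.

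**Figure D4:**
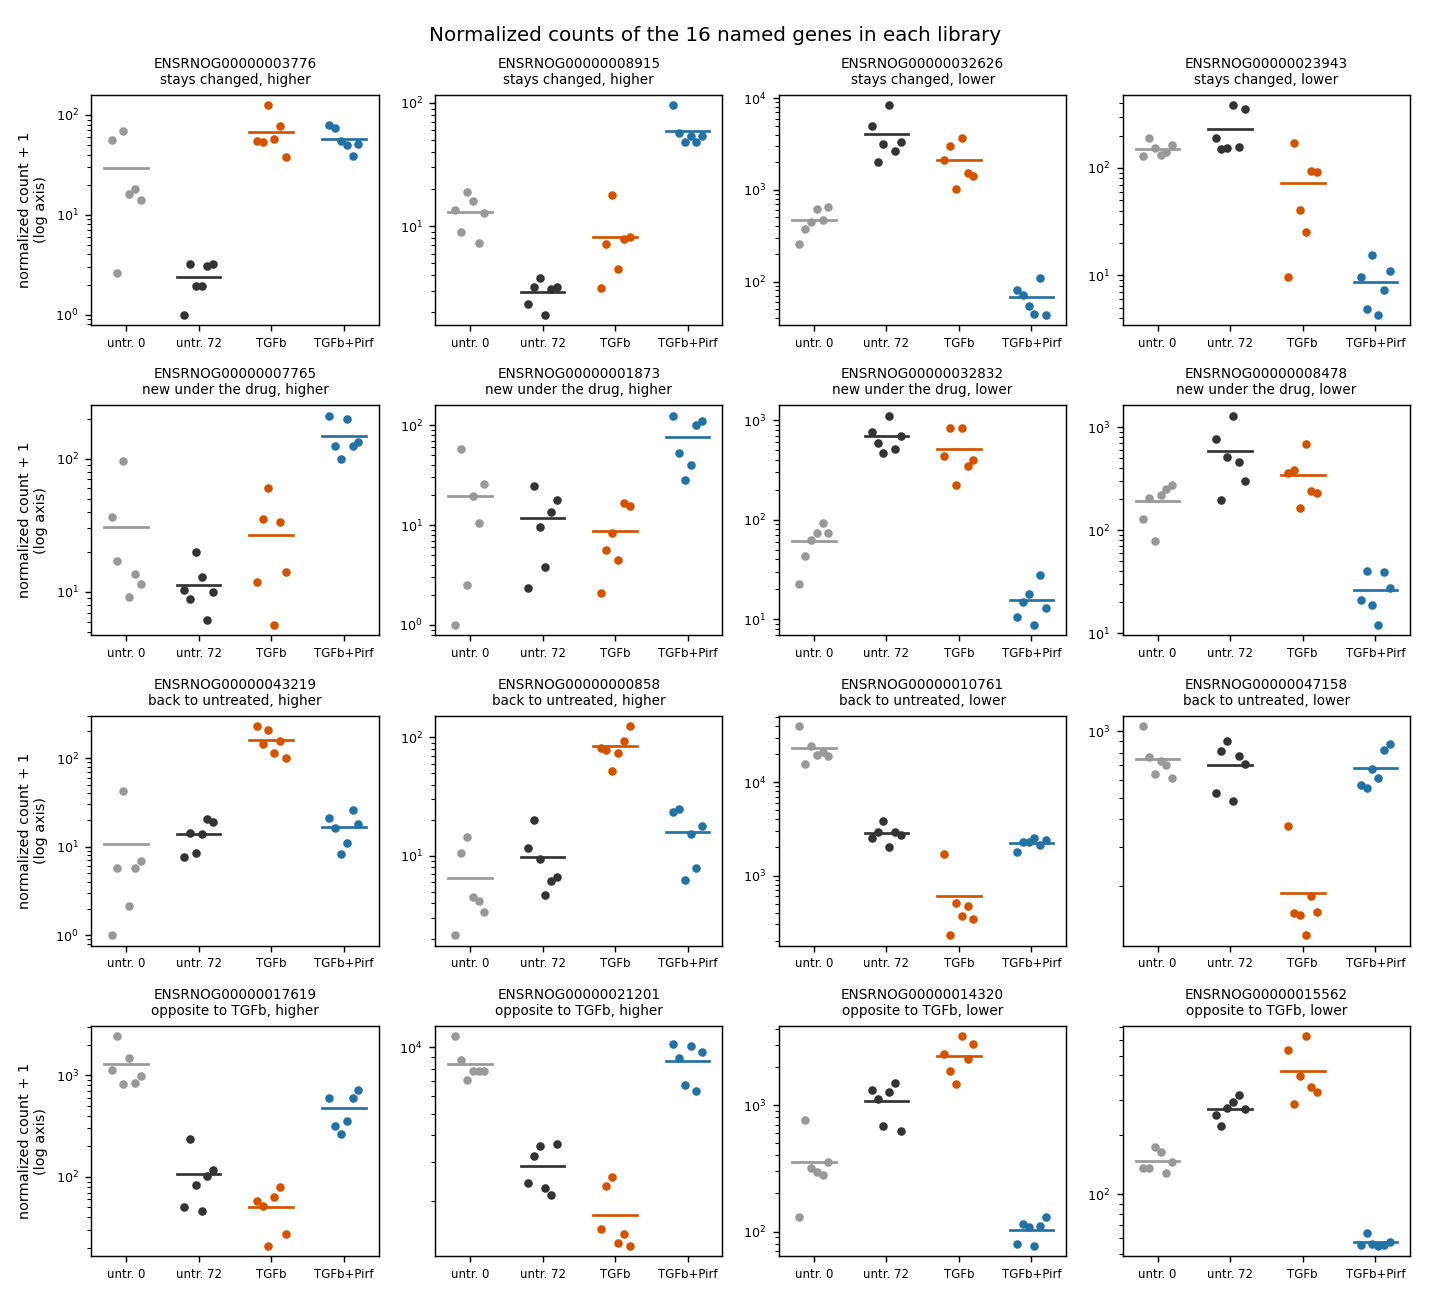
Normalized counts plus 1, on log axes, of the 16 named genes in each library of 4 groups, 1 point per library and a bar at the mean of 6. In the first 2 and the last rows the Pirf points stand apart from untreated points in each panel, which the naming rule required. In the row of genes back to untreated the ranges of Pirf and untreated points overlap.

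The net state with Pirf was set beside those with the other drugs, all against the same untreated libraries. TGFb with Nint differed from untreated slices in 4137 genes (26.4%) and TGFb with Sora in 3913 (25%), against 8131 with Pirf and 4130 with TGFb alone. With Nint 1969 genes were higher (12.6%) and 2168 lower (13.9%), and with Sora 2056 (13.1%) and 1857 (11.9%). At least 2-fold changes were called for 475 higher (3.04%) and 566 lower genes (3.62%) with TGFb alone. With Nint they numbered 397 (2.54%) and 641 (4.1%), with Sora 349 (2.23%) and 342 (2.19%), and with Pirf 711 and 1002. These numbers share the untreated libraries, and differences between them were not tested. Gene by gene, Pirf differed from Nint in 8544 genes (54.6%) and from Sora in 6592 (42.1%).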

How the data were processed

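Groups and replicate numbers were taken from sample titles, and columns were matched to samples by the well code in the sample descriptions. The number after the letter A to H in this code is read as a well number, which the labels do not state. It was uneven over the groups. Untreated libraries at 72 had only 03, 04 and 05, with 2 each, whereas 3 Pirf libraries had 01 and 1 had 02. Per the labels' protocols, the libraries came from a stranded kit for total RNA that depletes ribosomal RNA. RSEM, edgeR and the build Rnor_6.0 are named per the submitters' processing notes. The aligner was not given in the sources used here, nor was the annotation release. The authors deposited expected counts per gene for 32883 Ensembl IDs, with no scaling for depth or length, and RSEM can share reads among near-identical genes. They also deposited log2 CPM values for 14984 genes called expressed and protein coding by the table's name. These marked the coding genes and were compared with log2 CPM recomputed from the counts, and they entered no test.

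After rounding, the expected counts went into edgeR 4.0.16 (R 4.3.3): filterByExpr, TMM, and one quasi-likelihood fit of all 36 libraries with a mean per group, with Benjamini-Hochberg adjustment over 15644 genes. Standard errors (SE) were derived from the F statistic as the size of the log2 fold change over root F. Alternatives were total counts alone, DESeq2 1.42.0, limma 3.58.1 (voom), no filter, 3 groups only, a replicate block, a fold of 1.2, an adjusted p under 0.01 and leaving out single libraries. The classes were tested on simulated data. That run changed few genes, by more than most called genes changed here, so it does not cover many small changes.

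In each class and in the net comparison, the 2 IDs with the largest net change per direction were named (for genes back to untreated, the largest TGFb change), among genes whose groups of 6 did not overlap (for genes back to untreated, untreated against TGFb alone) and whose higher mean was at least 50 normalized counts. A rule for up to 12 genes per direction and counts over gene lists needed names and was not applied. Members and lists were chosen with earlier results of these data known.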

Additional observations from a re-analysis of the deposited data

Results flagged for a closer look

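Some libraries stood apart from the other 5 of their group, by a gap above Dixon's 95% critical value for 6 samples, in 6 of 57 groups tested. Chance flags about 1 in 20 groups, and values of different genes in a library are not independent. For ENSRNOG00000017619 an untreated library had 238 normalized counts and the next 115. For ENSRNOG00000008915 a TGFb-alone library had 16.8 against 7.19, and a Pirf library had 94.8 against 56.2. In TGFb-alone libraries, ENSRNOG00000010761 had 1683 against 503.5 and ENSRNOG00000047158 had 370.3 against 178.6. For ENSRNOG00000015562 a Pirf library had 63.1 against 56.4, in a group that spans less than 10 normalized counts.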

How the results depend on the processing

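The comparison was rerun under 27 settings, 18 of which left out 1 library. Of 188 recomputed class and call counts, 176 stayed within 1.5 times the reported one. Against a fold of 1.2 there were 4214 net calls, 973 genes that stayed changed, 2164 new, 493 back and 39 opposite, and 1316 of the new genes differed from both other drugs. At an adjusted p under 0.01, 1417 genes stayed changed, 790 were back and 129 opposite. The opposite class held 255 genes with no filter, 247 with the well number as a covariate and 248 without TGFb-alone replicate 4; the cause was not tested. Leaving out 1 library gave 7520 to 8200 net calls, 1612 to 1832 of at least 2-fold, 1884 to 2193 staying changed, 4119 to 4617 new, 925 to 1248 back, 248 to 452 opposite and 2811 to 3172 new genes that differed from both other drugs. With the replicate block there were 8245 net calls, and no named gene changed its call or class. No pairing by number was seen between these groups: same-numbered untreated and Pirf libraries had correlated deviations of -0.24 to 0.05. None of the 6 untreated libraries correlated best with the Pirf library of its own number. Such correlations cannot exclude a shared animal or a small effect of pairing. Of 416 recomputed net values of named genes, 415 kept their side of the threshold and 387 kept the class. The settings with the well number and those without a TGFb-alone library were chosen after seeing the data. So were the net, back and opposite counts at an adjusted p under 0.01. The same holds for every rerun of the count of at least 2-fold calls and of the new genes that differed from both other drugs. Counts over gene lists were not run for want of names.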

Other observations

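A set of genes that were not called in the net comparison or for TGFb moved together from library to library. It was chosen after the values were seen, as the 133 genes without a call in the net comparison or for TGFb alone whose log2 fold change lay between -2.5 and -1 for TGFb alone and between 0.5 and 2 for TGFb with Pirf, so its differences between group averages chose it, and large folds without a call also select genes that spread widely within groups, so neither has a test. These genes also moved together inside groups: the median pairwise correlation of their deviations from group means was 0.87 over 36 libraries. The choice used no correlations, but taking widely spread genes with like group differences can favour them. The correlation is therefore a description without a test. Of the 133 genes, 120 are in the coding table. Their median level spanned 5 log2 units over the libraries, and at time 0, before any treatment, it ran from -2.32 to 2.52 relative to each gene's mean over all libraries. It lay at -0.28 to 1.81 (median 0.82) in untreated slices at 72, at -2.04 to 1.10 (median -1.62) with TGFb alone and at 0.64 to 2.68 (median 1.82) with TGFb and Pirf. In TGFb-alone slices 4 of the 6 libraries lay at -1.24 or below and the other 2 at 0.22 and 1.10. Deviations of 286 tested genes (1.83%) correlated above 0.8 with the set, among them 67 of the 4425 new genes (1.51%), 7 of the 1189 back, 4 of the 2213 that stayed changed and 1 of the 398 opposite. The 286 were counted with members of the set itself left in, and by its rule no member belongs to a class. The share of 1.83% is therefore no background for the shares of the classes.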
